A study of Mus musculus with 2 samples.

Results

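The ATF4 stress program and serine synthesis were followed through 10 transcripts in the interscapular brown fat, a heat-producing depot, of mice that lack Rheb in brown adipocytes. They are Atf4, Ddit3, Trib3, Chac1, Asns, Phgdh, Psat1, Psph, Shmt2 and Mthfd2, chosen by name, 10 of the 54532 genes in the deposited count table. All 10 were detected in both libraries and passed the filter of a mean of at least 1 CPM (counts in each 1000000 of a library, after TMM scaling), which 12973 genes passed. The study has 2 libraries of C57BL/6J mice labelled male and 1 month old. The control library came from Rheb FL/FL littermates and the knockout library from Ucp1-cre; Rheb FL/FL mice, so both groups carry the floxed Rheb allele and the knockout adds a Cre recombinase driven by the Ucp1 promoter, which is active in brown adipocytes. Controls carry no Cre, so Cre and the loss of Rheb cannot be told apart. Tissue of 3 mice was pooled for each library. With 1 library per group there is no spread between animals to measure, no test was possible, and every interval below is a 95% counting interval that covers counting error only.

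ATF4 is a bZIP transcription factor made mainly when translation is slowed by phosphorylation of the initiation factor eIF2, and it activates genes for amino acid uptake, amino acid synthesis and stress adaptation. Its mRNA level is therefore only part of its control, since the protein depends on translation through upstream open reading frames. Serine is made from the glycolytic intermediate 3-phosphoglycerate by PHGDH, PSAT1 and PSPH in turn, and SHMT2 and MTHFD2 pass its carbon to folate inside mitochondria. Rheb activates the mTORC1 kinase complex, which is known from cultured cells to raise ATF4 translation and, through it, serine synthesis and mitochondrial folate enzymes.

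Several features of the libraries touch these results. The libraries held 21855229 (control) and 23699316 (knockout) counts over 20887 and 19457 detected genes, and mitochondrially encoded genes took 20.99% and 27.6% of the counts. Rheb itself had 1037 counts in control and 568 in knockout tissue. The labelled sex was not borne out in the control library, where Xist had 7452 counts and the Y-linked Ddx3y 0. In the knockout library they had 4 and 1484. The libraries thus differ in sex-linked transcripts as well as in genotype. For every gene below, the 10 included, differences of sex and of genotype cannot be told apart. All 9 brown adipocyte markers were present, 1 higher (Ppargc1a), 2 lower (Elovl3 and Adipoq) and 6 in between, with a summed level of 13633 CPM in control and 12789 CPM in knockout tissue. All 10 markers of skeletal muscle were lower in the knockout library (summed 3047 and 316 CPM), 7 of 8 macrophage markers were higher (90.9 and 174 CPM) and all 5 erythroid markers were higher (2263 and 5823 CPM). Of 8 neutrophil markers, 3 passed the filter and were higher (35.3 CPM summed over all 8 in the knockout against 3.63 in the control library), while Retnlg, 1 of the 3, passed through the knockout library (4 and 48 counts), Mpo was at 0 in both libraries and Ly6g at 0 in the control. Of 5 fibroblast markers 2 were higher and 1 lower (182 and 251 CPM), and none of 4 endothelial markers passed the size rule (486 and 412 CPM). The part of these cell types in the differences below was not tested, and in tissue RNA fewer cells of a type and less RNA per cell cannot be told apart.

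The 10 genes did not move together. A gene was counted as higher or lower where its scaled counts differed by at least 1.5-fold and the counting interval excluded 1. By that rule 1 of the 10, Ddit3, was higher in the knockout library, beside 22.9% of all genes kept, and 3 of the 10, Psph, Mthfd2 and Trib3, were lower, beside 22.9% of all genes. Both counts lie near what all genes gave. The median log2 ratio of the 10 was -0.27, against -0.003 for all genes. Its sign is not stable, since at a filter of 10 CPM, which 6 of the 10 passed, it was 0.14. Total-count scaling shifts the median of all genes to -0.13 and that of the 10 to -0.40.

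**Figure D1:**
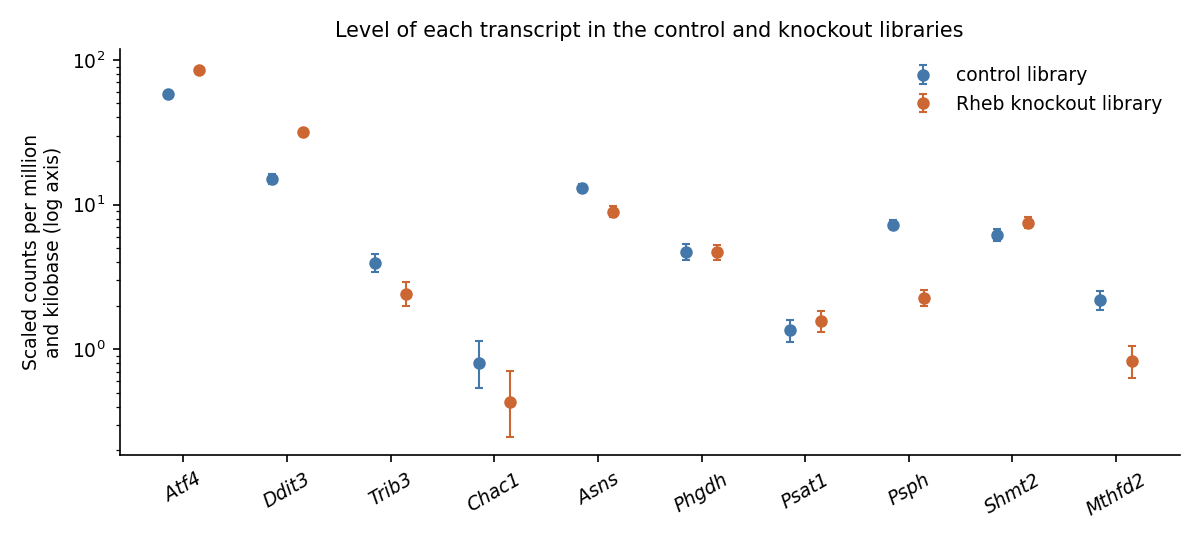
Level of each of the 10 transcripts in the control library (blue) and the Rheb knockout library (orange), as scaled CPM per kilobase of exon on a log axis. Bars are 95% counting intervals within 1 library. Atf4 is highest and Chac1 lowest in both, and Ddit3, Psph and Mthfd2 are the genes with the widest gaps between libraries.

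Per kilobase of exon, which allows levels of different genes to be compared, Atf4 was the most abundant of the 10 at 57.9 CPM per kb in control and 85.8 CPM per kb in knockout tissue. Ddit3 followed with 14.96 and 31.5 CPM per kb, and Asns with 13.0 and 8.94 CPM per kb. In the control library the intervals of Ddit3 (13.8 to 16.2) and Asns (12.2 to 14.0) overlapped, so these neighbours are not separated beyond counting error there. The rest of the order in the control library was Psph (7.25), Shmt2 (6.16), Phgdh (4.71), Trib3 (3.93), Mthfd2 (2.18), Psat1 (1.35) and Chac1 (0.801 CPM per kb), with overlapping intervals for Psph and Shmt2, for Phgdh and Trib3, and for Psat1 and Chac1. In the knockout library Psph stood at rank 7 instead of rank 4 and Mthfd2 at rank 9 instead of rank 8. The order there after Asns was Shmt2 (7.50), Phgdh (4.69), Trib3 (2.41), Psph (2.26), Psat1 (1.56), Mthfd2 (0.823) and Chac1 (0.432 CPM per kb), and the intervals of Trib3 and Psph and of Mthfd2 and Chac1 overlapped.

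Atf4 (ENSMUSG00000042406, chromosome 15, 80255184 to 80257541, plus strand, mm10) had 3125 counts in control and 4583 in knockout tissue, or 137 and 202 CPM. It was 1.48-fold higher in the knockout library (1.42 to 1.55), just short of the 1.5-fold threshold. Of all genes kept, 77.3% had a lower log2 ratio, so a difference of this size is common between these libraries.

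Ddit3 (ENSMUSG00000025408, chromosome 10, 127290774 to 127296288, plus strand) encodes CHOP, a bZIP factor that ATF4 induces and that is linked to cell death under prolonged stress. It had 586 counts in control and 1222 in knockout tissue (25.6 and 54.0 CPM), 2.11-fold higher (1.91 to 2.33), and 91.8% of all genes had a lower log2 ratio. Within each library, which needs no scaling between libraries, the Ddit3 level per length was 0.258 of that of Atf4 in control and 0.367 in knockout tissue, a 1.42-fold higher share (1.27 to 1.59). Ddit3 was thus higher in the knockout library also relative to Atf4. A second Ensembl identifier with the symbol Ddit3 (ENSMUSG00000116429), 105 bases that all lie within exons of the first, had 0 counts in both libraries. Ddit3 exons also share 68 bases with Mars, the methionyl-tRNA synthetase gene on the opposite strand, which had 1292 and 798 counts, lower in the knockout library where Ddit3 was higher.

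Targets of ATF4 among the 10 lay on both sides of 1, with Ddit3 at a ratio of 2.11. Trib3, Chac1 and Asns, textbook targets outside the serine and folate steps, are grouped here for ratios below 1, although the interval of Chac1 included 1. Their promoters were searched for the C/EBP-ATF response element TGATGNAA, the composite site through which ATF4 and its partners bind, on both strands and in the window from 250 bases before to 50 bases after the RefSeq start (GRCm38.p6, the same assembly as mm10). All 10 genes had an entry, and these same 3 held a match, 1 each. Psph, Mthfd2 and Phgdh also had ratios below 1 (0.312, 0.377 and 0.995) but held no match. A ratio below 1 and a match therefore did not coincide over the 10. Of 32851 RefSeq promoters, 3.97% held one. The sites are shown because these are the genes of the set in which the letters occur, with the matching bases in capitals, 5′ to 3′ on the gene's strand. Chac1 and Asns are given as the 250 bases before the start and Trib3, whose match lies after the start, as a 30-base site.
Chac1, chr2:119350992-119351241, plus strand: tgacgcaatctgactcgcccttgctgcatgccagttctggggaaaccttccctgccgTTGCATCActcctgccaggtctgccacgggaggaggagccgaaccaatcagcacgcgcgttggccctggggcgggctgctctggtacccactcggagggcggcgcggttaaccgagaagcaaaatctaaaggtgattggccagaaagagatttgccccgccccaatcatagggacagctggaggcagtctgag
Asns, chr6:7693210-7693459, minus strand: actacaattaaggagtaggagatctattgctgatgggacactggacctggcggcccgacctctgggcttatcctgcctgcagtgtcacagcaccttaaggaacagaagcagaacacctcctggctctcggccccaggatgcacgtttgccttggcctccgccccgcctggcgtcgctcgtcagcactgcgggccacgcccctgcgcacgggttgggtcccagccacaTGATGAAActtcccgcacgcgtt
Trib3, chr2:152344028-152344057, minus strand: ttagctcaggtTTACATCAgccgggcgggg

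The match in Chac1 runs from base -193 to -186 before the RefSeq start and that in Asns from -23 to -16, while that in Trib3 spans bases 15 to 22 after it. In Chac1 and Trib3 the letters are the reverse complement of the searched element. A match is a description of the letters, not a measured binding site, and genes without one may hold it outside the window. Among kept genes with a promoter entry, 260 held the letters, of which 53 were higher and 51 lower in the knockout library. That is 20.4% and 19.6%, beside 22.5% and 22.8% of the 9430 genes without them.

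Trib3 (ENSMUSG00000032715, chromosome 2, 152337422 to 152344032, minus strand) encodes a pseudokinase that binds ATF4 and CHOP and dampens their activity. It had 191 counts in control and 116 in knockout tissue (8.35 and 5.12 CPM), 1.63-fold lower in the knockout library (1.29 to 2.07). Relative to Ddit3 in the same library it was 3.43-fold lower (2.65 to 4.45). The direction of that value was fixed by the pair, a lower gene set against the higher one. Chac1 (ENSMUSG00000027313, chromosome 2, 119351229 to 119354381, plus strand), an enzyme that degrades glutathione, had only 30 and 16 counts (1.31 and 0.707 CPM), a ratio of 0.539 with an interval of 0.274 to 1.02. Its depth does not separate a lower level from an equal one. It passed the filter narrowly and only through the control library, with a mean of 1.01 CPM. Asns (ENSMUSG00000029752, chromosome 6, 7675169 to 7693254, minus strand), which makes asparagine from aspartate and glutamine, had 816 and 554 counts (35.7 and 24.5 CPM), 1.46-fold lower (1.31 to 1.63) and so just short of the threshold. With total-count scaling, under which 28.5% of all genes were lower, Asns was 1.60-fold and Chac1 2.03-fold lower, and both passed the size rule.

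Against Atf4 in the same library, all 3 of these targets were lower in the knockout library. That direction was fixed beforehand, since they were grouped for ratios below 1 and Atf4 had a ratio of 1.48. Of all genes kept, 77.3% had a lower log2 ratio than Atf4, as did every other member except Ddit3. The Asns to Atf4 ratio was 2.16-fold lower (1.92 to 2.43), the Trib3 to Atf4 ratio 2.42-fold lower (1.90 to 3.08) and the Chac1 to Atf4 ratio 2.75-fold lower (1.45 to 5.41). These ratios do not depend on how the libraries are scaled. Atf4 and Ddit3 stood above 1 and Trib3, Chac1 and Asns below it under all 4 scalings run.

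In the serine synthesis pathway the last enzyme differed from the first ones. Phgdh (ENSMUSG00000053398, chromosome 3, 98313170 to 98339990, minus strand), phosphoglycerate dehydrogenase, the entry step, had 268 counts in control and 264 in knockout tissue (11.7 and 11.7 CPM), a ratio of 0.995 (0.836 to 1.18). Psat1 (ENSMUSG00000024640, chromosome 19, 15904678 to 15947337, minus strand), the aminotransferase of the next step, had 131 and 150 counts (5.73 and 6.62 CPM), a ratio of 1.16 (0.909 to 1.47). For both genes the interval includes 1 and excludes a 1.5-fold difference in either direction, as far as counting error goes.

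Psph (ENSMUSG00000029446, chromosome 5, 129765558 to 129787449, minus strand), the phosphatase that releases serine, had 718 counts in control and 222 in knockout tissue (31.4 and 9.80 CPM). It was 3.20-fold lower (2.75 to 3.74), the lowest ratio of the 10, and only 3.64% of all genes had a lower log2 ratio. Within a library the level of Psph per length was 1.54 times that of Phgdh in control and 0.483 times in knockout tissue, a 3.19-fold difference (2.52 to 4.02). Against Psat1 the difference was 3.70-fold (2.77 to 4.94), whereas the Psat1 to Phgdh ratio differed by 1.16-fold with an interval that includes 1 (0.861 to 1.57). Psph exons share 452 bases, 10.4% of their length, with Cct6a, a chaperonin gene on the opposite strand that had 1584 and 1293 counts. The kit does not keep strand, so reads of that stretch cannot be assigned. Cct6a had a ratio of 0.824.

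The level of Phgdh is less certain than that of the other enzymes. The longest GENCODE transcript of each of the 10 genes was compared with all other transcripts. For Phgdh, 18 other genes matched with at least 90% identity over at least 200 bases, most of them processed pseudogenes. Together these 18 had a single count, which was in the control library. How reads that fit several places were counted is not given in the sources used here. Psat1 and Shmt2 each had 1 such pseudogene, at 0 counts, and the other genes had none apart from the stretch that Psph shares with Cct6a.

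The enzymes of the mitochondrial folate pathway also went apart. Shmt2 (ENSMUSG00000025403, chromosome 10, 127517123 to 127522444, minus strand), which splits serine into glycine and a folate-bound carbon, had 438 counts in control and 528 in knockout tissue (19.2 and 23.3 CPM), a ratio of 1.22 (1.07 to 1.39), within the middle range of genes. Mthfd2 (ENSMUSG00000005667, chromosome 6, 83305691 to 83325908, minus strand), the dehydrogenase and cyclohydrolase of the next step, had 174 and 65 counts (7.61 and 2.87 CPM). It was 2.65-fold lower in the knockout library (1.98 to 3.58), and 6.21% of all genes had a lower log2 ratio. The Mthfd2 to Shmt2 level per length was 0.354 in control and 0.110 in knockout tissue, 3.23-fold lower (2.34 to 4.48). Psph and Mthfd2 were thus the members past 2-fold lower, and Ddit3 the member past 2-fold higher.

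**Figure D2:**
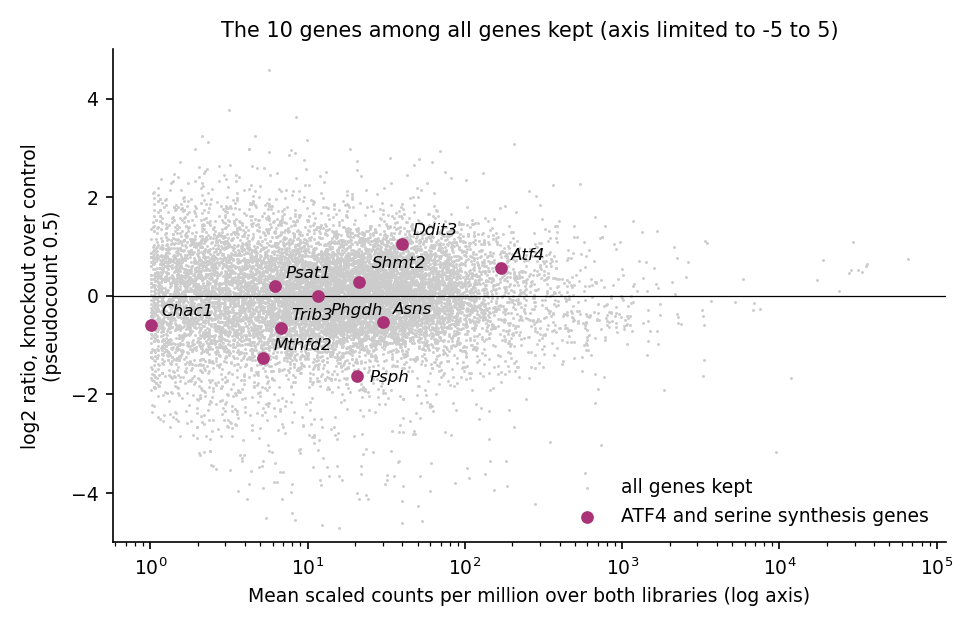
Log2 ratio, knockout over control (pseudocount of 0.5 CPM), against mean CPM, for all 12973 genes kept (grey) and the 10 genes (purple). Most of the 10 lie inside the main cloud, with Psph at -1.63, Mthfd2 at -1.27 and Ddit3 at 1.06 nearer its edges.

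Genes upstream of ATF4 were mostly in between. In a list of 18 genes of eIF2 signalling (kinases, phosphatase subunits, eIF2 and its exchange factor eIF2B, and regulators), none was higher and 5 were lower; the other 13 were in between, and the median log2 ratio was -0.10. Of all genes kept 22.9% were higher and 22.9% lower. The share of lower genes was thus near that of all genes, while that of higher genes was below it. No test of that difference was possible. The kinase Eif2ak1 (HRI), which relays heme shortage and mitochondrial stress, had 663 and 349 counts, 1.88-fold lower (1.65 to 2.15). Oma1, the mitochondrial protease that starts that relay, was 1.98-fold lower (176 and 88 counts, 1.52 to 2.59). Eif2s2, the beta subunit of eIF2, was 1.74-fold lower. The other kinases Eif2ak2 (PKR, ratio 1.15), Eif2ak3 (PERK, ratio 1.47) and Eif2ak4 (GCN2, ratio 1.22), named after their values were seen, lay in between.

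Eif2s3x, the X-linked gamma subunit of eIF2, had the lowest ratio of the list, 3.17-fold lower (2439 and 762 counts, 2.92 to 3.44). Its Y-linked paralog Eif2s3y had 0 counts in control and 2653 in knockout tissue. The value of Eif2s3x therefore moves with the sex-linked transcripts, and its part from the genotype cannot be told apart.

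The list of ATF4 partners and related factors, not all of them transcription factors, gave 3 higher, 2 lower and 6 in between of 11. The median was -0.03, and both shares were close to the 22.9% of all genes in each direction. Atf3, a bZIP factor that stress induces, had 200 and 431 counts, 2.18-fold higher (1.84 to 2.59), near the value of Ddit3. Cebpd was 1.86-fold higher (1.55 to 2.24) and Nfe2l2, which encodes the antioxidant regulator NRF2, 1.73-fold higher (1.61 to 1.87). Atf6, an endoplasmic reticulum stress sensor, was 1.57-fold lower (1.37 to 1.79). The dimer partners Cebpg (ratio 0.905) and Cebpb (1.05), named after their values were seen, lay close to 1, and Atf5 stood at 0.720 with 7713 and 5498 counts.

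Other targets of ATF4 also had members on both sides. Of 27 in the list 21 passed the filter, of which 5 were higher, 6 lower and 10 in between, with a median of -0.03. Both shares are near the 22.9% of all genes in each direction. The stress hormone Gdf15 was 6.62-fold higher, from 9 to 59 counts (3.26 to 15.2), and the cationic amino acid transporter Slc7a3 was 3.53-fold higher (14 and 49 counts, 1.92 to 6.93). Both had under 1 CPM in the control library and passed the filter through the knockout library. In the same way a gene counted as lower, with 37 counts in control and 18 in knockout tissue, passed through the control library. Slc38a2, a transporter of small neutral amino acids that was named after its value was seen, was 1.92-fold higher from 1987 to 3780 counts. Eif4ebp1, the translational repressor that mTORC1 inactivates, was 3.15-fold lower (2.93 to 3.38), and Chac2, the paralog of Chac1, 2.90-fold lower (170 and 58 counts, 2.14 to 3.98). Among the 13 cytosolic tRNA synthetase and tRNA export genes, 2 were lower, none was higher and 11 lay in between (median -0.08), beside 22.9% of all genes in each direction, with Mars 1.60-fold and Wars 1.55-fold lower. Aars was 1.48-fold lower and Eprs had a ratio of 1.37, both in between.

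Among the enzymes around the folate steps, the share of genes lower in the knockout library was larger than the 22.9% of all genes kept. No test of that difference was possible, and the list was chosen with earlier results of these data known. Of 24 genes of folate metabolism and glycine cleavage 21 passed the filter, and 10 of these were lower, 5 higher and 6 in between; the median log2 ratio was -0.56 against -0.003 for all genes. Aldh1l1, the cytosolic formyl-folate dehydrogenase, was 2.62-fold lower (1367 and 516 counts, 2.37 to 2.91). Gcsh, the lipoyl carrier of the glycine cleavage system, was 2.43-fold lower, and the purine synthesis enzymes Gart and Atic, which use formyl-folate, were 2.47-fold and 2.26-fold lower. Shmt1, the cytosolic counterpart of Shmt2, named after its value was seen, was 1.64-fold lower (468 and 282 counts, 1.41 to 1.91). Not all members went that way: Amt, the aminomethyltransferase of glycine cleavage, named after its value was seen, was 2.12-fold higher (127 and 267 counts, 1.71 to 2.64). Mthfd2l, the paralog of Mthfd2, had 165 and 184 counts and a ratio of 1.13 (0.908 to 1.40), unlike the 2.65-fold lower Mthfd2.

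**Figure D3:**
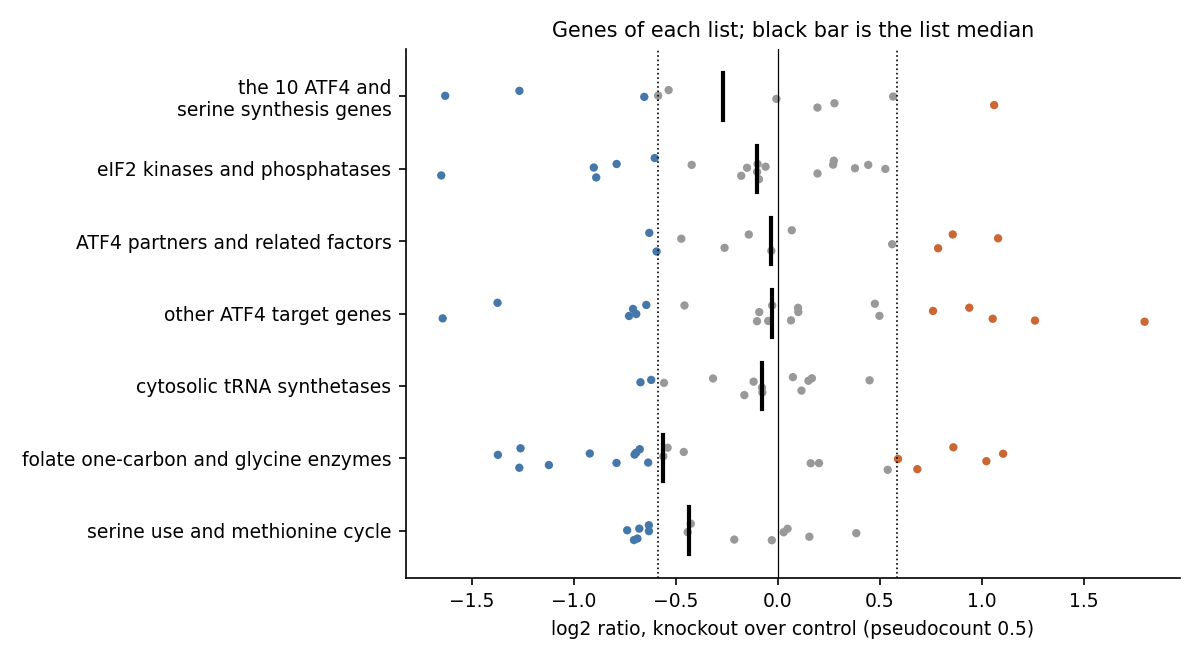
Log2 ratio, knockout over control (pseudocount of 0.5 CPM), for the 10 genes and for each list around them, 1 point per gene that passed the filter, orange and blue for genes past the size rule, grey for those in between, with the list median as a black bar and dotted lines at 1.5-fold. The list labelled eIF2 kinases and phosphatases is the eIF2 signalling list. The folate list has the lowest median, -0.56, and the other ATF4 targets spread on both sides.

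Genes that use serine or run the methionine cycle gave 6 lower and none higher of 14 that passed the filter, out of 18 (median -0.43), beside 22.9% of all genes lower and 22.9% higher. Gclm, the modifier subunit of the enzyme that starts glutathione synthesis, was 1.69-fold lower (744 and 437 counts). Srr, serine racemase, was 1.66-fold lower (1.42 to 1.94), Mat2b, the regulatory subunit of methionine adenosyltransferase, 1.62-fold and Grhpr, a glyoxylate and hydroxypyruvate reductase, 1.61-fold. The lower genes of this list lay between 1.5-fold and 2-fold, a narrower range than that of Psph and Mthfd2.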

How the data were processed

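RNA was sequenced from 2 libraries, each from the pooled brown adipose tissue of 3 mice. The deposited values are raw counts of reads for each Ensembl gene and were not normalized. Trimmomatic, HISAT2, featureCounts and the mm10 build are named in the submitters' processing notes; versions, annotation release, strand setting and the treatment of reads that fit several places were not given in the sources used here. The table's length column equals the union of its listed exons for all 10 genes. Per the labels' protocols RNA was extracted with Trizol and libraries were made with the TruSeq v2 kit, which does not mark strand.

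Counts were scaled with TMM factors from edgeR 4.0.16. Ratios are of scaled counts, with exact binomial (Clopper-Pearson) 95% intervals; PCR copies are not independent molecules. Levels within a library have exact Poisson intervals, and ratios between genes in a library have exact conditional odds ratio intervals. Log2 ratios use a pseudocount of 0.5 CPM, which understates the change of low genes. The filter kept genes whose mean reached 1 CPM. There was 1 library per group, so no test was made. The 10 genes and the 6 lists (111 genes, all found) were chosen with earlier results of these data known. Besides the 10 genes, up to 4 genes of each list with the largest absolute log2 ratio are named; 1 list gene is not reported here by name. Where a symbol had several identifiers, that with more counts was used. The size rule was tested on simulated data that held counting noise only, so that test does not cover spread between animals. Transcripts were compared with blastn 2.17.0, and promoter sequences are from RefSeq (GRCm38.p6). DESeq2 1.42.0 size factors were an alternative. Computation used R 4.3.3, Python 3.11.15 and scipy 1.17.1.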

Additional observations from a re-analysis of the deposited data

How the results depend on the processing

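Of 105 counts and medians recomputed over the alternatives, 86 stayed within their limits and 19 moved. The limit was 1.5 times a count, or for a median the mean half-width of the counting intervals of its middle genes. A single gene was held to its own counting interval. For single genes and list medians 87 of 92 stayed, and no called gene changed direction. Total-count scaling gave 5 instead of 3 of the 10 genes lower, and 3 instead of 5 folate genes higher; of all genes it gave 28.5% lower and 18.3% higher. A filter at a mean of 10 CPM left 6 of the 10 genes, 1 of them lower, with a median log2 ratio of 0.14 instead of -0.27, because the low genes Trib3, Chac1, Psat1 and Mthfd2 drop out; it also left 2 higher genes among the other ATF4 targets and 2 among the folate genes. With the threshold set at a ratio 25% above 1 (or its inverse), 2 of the 10 genes were higher (Atf4 joins), as were 3 of eIF2 signalling, 1 tRNA synthetase gene and 1 gene of serine use, beside 31.8% of all genes. At 2-fold, where 11.1% of all genes were higher and 11.7% lower, 1 eIF2 signalling gene was lower, 1 factor around ATF4 was higher and 0 lower, the other targets gave 3 higher and 3 lower, the tRNA synthetases 0 lower, the folate genes 2 higher and 4 lower, and serine use 0 lower. The log2 ratio of Ddit3 ranged from 0.93 to 1.07, that of Psph from -1.76 to -1.50 and that of Mthfd2 from -1.39 to -0.98. Chac1, with 30 and 16 counts, is limited by depth. No replicate exists to leave out. No paired analysis was possible because there is 1 library on each side.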
